A study of Mus musculus with 2 samples.

Results

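Chromatin accessibility of 7 metabotropic glutamate receptor genes (Grm2, Grm3, Grm4, Grm5, Grm6, Grm7 and Grm8) was read from DNase-seq of mouse cortex, an assay that sequences the ends of DNA fragments cut by DNase I where chromatin is open. The genes were taken by name and are 7 of the 21938 protein-coding genes, or of 55413 genes of any type, in the GENCODE M21 annotation of mm10. The tissue was cerebral cortex, left side, at an age of 14 days. The mice were B6CASTF1/J females, the F1 cross of C57BL/6J and CAST/EiJ, with no treatment named. The 2 libraries, called replicate 1 and replicate 2, came from separate animals listed under 1 donor record, and they form 1 group. No comparison between conditions existed, no test between groups was possible and no p-value was computed. Values are therefore printed for both libraries, and a mean carries the SD of those 2 values. The values do not separate the C57BL/6J and CAST/EiJ alleles, and the labels name tissue with no sorting into cell types.

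Metabotropic glutamate receptors are G protein-coupled receptors that change neuronal excitability and transmitter release slowly, unlike the glutamate-gated ion channels of the NMDA, AMPA and kainate families. Group I receptors, here Grm5, couple to Gq and phospholipase C and sit mostly on the postsynaptic membrane, where Homer scaffolds hold them. Group II receptors (Grm2 and Grm3) and group III receptors (Grm4, Grm6, Grm7 and Grm8) couple to Gi/o proteins, lower cAMP and mostly restrain presynaptic release. Grm6 differs from the others in its known site, the dendrites of retinal ON bipolar cells, where it closes the channel Trpm1.

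The DNA on which the results below turn is shown first, 5′ to 3′ on the strand of the gene, from the C57BL/6J reference GRCm38.p6. DHS, for DNase I hypersensitive site, means a deposited peak of accessible DNA, and a footprint is a short stretch that the authors called as protected from cutting. Capitals mark bases inside a footprint of both libraries. The first pair holds the highest DHSs near the start sites of Grm3 (chr5:9726061-9726300, minus strand) and Grm8 (chr6:28135981-28136200, minus strand), which both lie upstream of the annotated transcription start site (TSS). The next pair holds RefSeq promoters, from 250 bases before to 50 after the start, of Grm7 (chr6:110645348-110645647, plus strand), whose DHS spans the start, and of Grm6 (chr11:50850435-50850734, plus strand), which had no DHS. The last 3 are DHSs outside the promoter windows of the remaining genes, at Grm2 (chr9:106657684-106657980, minus strand), Grm4 (chr17:27534781-27535020, minus strand) and Grm5 (chr7:87586301-87586600, plus strand).
Grm3 upstream DHS: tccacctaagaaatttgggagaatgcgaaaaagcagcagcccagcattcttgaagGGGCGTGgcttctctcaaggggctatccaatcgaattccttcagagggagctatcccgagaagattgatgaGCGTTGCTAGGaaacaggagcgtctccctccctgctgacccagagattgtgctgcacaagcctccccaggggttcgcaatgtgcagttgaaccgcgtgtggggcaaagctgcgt
Grm8 upstream DHS: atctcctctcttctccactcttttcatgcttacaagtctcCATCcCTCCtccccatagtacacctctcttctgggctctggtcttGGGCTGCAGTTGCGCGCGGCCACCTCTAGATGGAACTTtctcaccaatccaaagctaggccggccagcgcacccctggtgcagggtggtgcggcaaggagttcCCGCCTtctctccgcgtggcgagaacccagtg
Grm7 RefSeq promoter: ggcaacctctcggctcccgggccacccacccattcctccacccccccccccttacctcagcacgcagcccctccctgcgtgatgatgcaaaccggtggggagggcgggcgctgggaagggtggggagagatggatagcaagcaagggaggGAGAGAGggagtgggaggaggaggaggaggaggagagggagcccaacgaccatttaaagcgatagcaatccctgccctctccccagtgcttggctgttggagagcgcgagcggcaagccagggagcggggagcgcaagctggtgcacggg
Grm6 RefSeq promoter: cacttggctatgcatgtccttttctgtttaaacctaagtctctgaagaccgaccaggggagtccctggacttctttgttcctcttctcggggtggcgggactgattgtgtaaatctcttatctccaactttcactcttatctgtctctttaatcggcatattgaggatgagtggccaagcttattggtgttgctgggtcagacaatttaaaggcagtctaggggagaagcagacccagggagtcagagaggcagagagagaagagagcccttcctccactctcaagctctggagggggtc
Grm2 nearest distal DHS: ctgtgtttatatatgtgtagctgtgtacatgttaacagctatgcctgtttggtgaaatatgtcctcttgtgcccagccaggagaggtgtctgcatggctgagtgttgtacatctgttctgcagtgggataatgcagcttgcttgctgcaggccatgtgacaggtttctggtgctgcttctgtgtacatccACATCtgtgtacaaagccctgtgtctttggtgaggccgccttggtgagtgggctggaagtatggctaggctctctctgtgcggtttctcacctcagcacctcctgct
Grm4 nearest distal DHS: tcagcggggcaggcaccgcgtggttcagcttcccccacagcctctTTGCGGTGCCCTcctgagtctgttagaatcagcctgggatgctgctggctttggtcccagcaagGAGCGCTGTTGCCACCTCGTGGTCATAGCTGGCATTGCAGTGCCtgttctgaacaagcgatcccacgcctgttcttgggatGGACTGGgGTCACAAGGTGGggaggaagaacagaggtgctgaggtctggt
Grm5 nearest distal DHS: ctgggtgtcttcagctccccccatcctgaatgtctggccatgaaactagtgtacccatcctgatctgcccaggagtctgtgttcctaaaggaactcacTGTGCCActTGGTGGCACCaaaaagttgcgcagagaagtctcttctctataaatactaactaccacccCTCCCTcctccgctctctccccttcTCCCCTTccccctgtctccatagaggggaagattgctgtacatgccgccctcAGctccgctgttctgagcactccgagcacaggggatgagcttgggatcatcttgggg
Of these, the Grm4 site held 75 bases in footprints of both libraries, the Grm8 site 52, the Grm5 site 32, the Grm3 site 18, the Grm7 promoter 7 and the Grm2 site 5. The Grm6 promoter held none.

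The libraries differed in how much was called. Replicate 1 had 90059 peaks with a median signal of 0.678 and 199455 footprints, and replicate 2 had 175597 peaks with a median of 0.463 and 416840 footprints. The peak signal is the authors' value and carries no stated unit, so its read depth is unknown and its values rank sites within these libraries only. A shared DHS holds a peak of each library, and 78165 were found. Promoters of the markers fixed for neurons were called in both libraries in 4 of 4 pan-neuronal and 4 of 4 glutamatergic genes. The counts were 2 of 4 for interneurons, 3 of 4 for astrocytes, 3 of 4 for the oligodendrocyte lineage, 2 of 4 for microglia and 0 of 4 for endothelial cells. Cerebellar and liver markers were at 0 of 4 each. Taking replicate 2 by itself, the counts were 3 of 4 for interneurons, 4 of 4 for astrocytes and 3 of 4 for the oligodendrocyte lineage. They were 4 of 4 for microglia, 1 of 4 for endothelial cells, 0 of 4 for cerebellum and 2 of 4 for liver. Of all protein-coding genes, 62.7% were called in both libraries and 67.8% in replicate 2.

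A promoter DHS, meaning a peak in both libraries overlapping 1 kb on either side of any annotated TSS of the gene, was present for Grm3, Grm4, Grm5, Grm7 and Grm8 and missing for Grm2 and Grm6. These 5 of 7 genes stand beside 62.7% of all protein-coding genes called by the same rule. Replicate 1 alone gave 6 of 7, beside 63.6% of coding genes, and replicate 2 alone 5 of 7, beside 67.8%. The share of the receptor genes lies near that of coding genes, and nothing is read from it about the family as a whole. In bulk tissue, fewer cells with an open promoter and less accessibility per cell cannot be told apart.

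**Figure D1:**
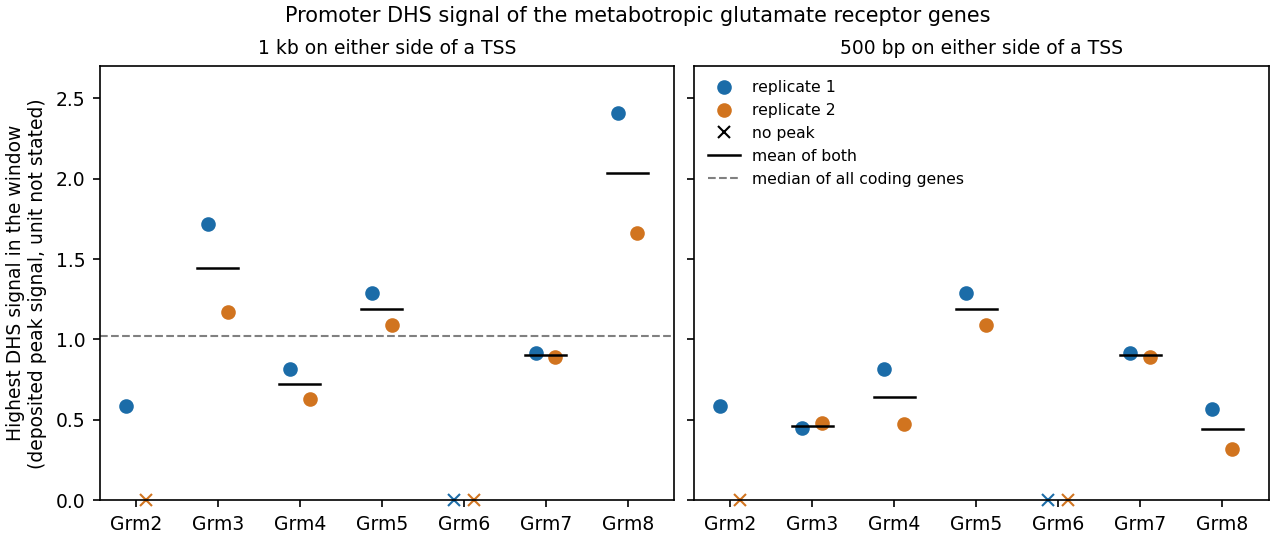
Highest DHS signal (deposited peak signal, unit not stated) within 1 kb (left) and 500 bp (right) of any TSS of each gene; points are replicate 1 and replicate 2, crosses mark no peak, black lines are means of both and the dashed line in the left panel is the median of all coding genes, 1.02. That median counts an absent DHS as 0. With the wider window Grm8 and Grm3 are highest, at 2.03 and 1.45. With the narrower one Grm5 is highest and Grm3 and Grm8 lie below 0.6 in both libraries. In the narrower window the points of Grm4, and those of Grm8, come from different sites in the 2 libraries.

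Grm5, the group I member and the main postsynaptic metabotropic receptor of the forebrain, had a promoter signal of 1.29 in replicate 1 and 1.09 in replicate 2, a mean of 1.19 ± 0.143. Its DHS (chr7:87584181-87584660) began just downstream of the most 5′ start, covered 3 more starts, 1 of them coding, over 480 bp, and lay in the non-coding part of an exon. The lowest deposited false discovery rate of the cleavage rate there, computed by the authors per genome segment, was 1.3e-09 in replicate 1 and 1.5e-22 in replicate 2. The other starts of the gene, 18273 to 18921 bp downstream, include coding transcripts and had no peak in either library. Accessibility at the annotated starts of Grm5 was thus found at the 5′ cluster and not at the downstream one.

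Grm2 and Grm3, the group II pair, differed at their promoters. Grm3, which is known from neurons and astrocytes, had 1.72 in replicate 1 and 1.17 in replicate 2, a mean of 1.45 ± 0.384. That mean was at percentile 56.7 of all coding genes, of which 62.7% were called and the others counted as 0. The Grm3 signal belongs to the upstream DHS printed above, which ends 891 bp before the TSS. The start itself lies in a broad, low DHS of 800 bp (chr5:9724661-9725460) with 0.447 and 0.478, next to another in intron 1 with 0.37 and 0.438. With a window of 500 bp the Grm3 value is therefore that of the start, 0.447 and 0.478, a mean of 0.462.

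Grm2, a presynaptic autoreceptor of glutamatergic terminals, had a peak of 81 bp (chr9:106656330-106656410) in replicate 1, with a signal of 0.586, and none in replicate 2. A promoter peak in replicate 1 alone was found for 0.916% of coding genes. The peak held no footprint. Segments under the authors' false discovery rate limit were nevertheless present in both libraries, over 51 bp with a lowest rate of 0.038 in replicate 1 and over 19 bp with 0.035 in replicate 2. A shared DHS of 0.655 and 0.692 lay 1602 bp upstream of the nearest start, outside the window, and with a window of 2 kb Grm2 was called in both libraries and the count became 6 of 7.

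Among the group III genes the promoter signals spanned the whole range of the family. Grm8, a presynaptic receptor with high affinity for glutamate, had the highest promoter signal of the 7, 2.41 in replicate 1 and 1.66 in replicate 2. Its mean of 2.03 ± 0.533 was at percentile 64.9 of coding genes, with genes not called again counted as 0. Its value came from the upstream DHS printed above, 803 bp from the most 5′ start, that of a transcript annotated as processed and not as coding. A further 3 promoter DHSs lay 3′ of it, with 0.57 and 0.284, 0.524 and 0.294, and 0.462 and 0.319. With coding transcripts only, or with a window of 500 bp, the highest values for Grm8 were 0.57 in replicate 1 and 0.319 in replicate 2, from different DHSs of these 3. The coding starts 8983 and 9053 bp downstream had no peak.

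Grm7, a receptor of the presynaptic active zone with low affinity for glutamate, had 0.917 in replicate 1 and 0.891 in replicate 2, a mean of 0.904 ± 0.0184, the closest pair of the 5 called genes. Its DHS (chr6:110645401-110645760) spans the most 5′ starts of the gene. The same DHS falls in the promoter window of Gm20387, an antisense gene that overlaps Grm7, so it cannot be assigned to one of them. A second promoter DHS with 0.555 and 0.513 lay 640 bp downstream in the first coding exon, and the coding starts 850134 and 850163 bp downstream had no peak.

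Grm4, a presynaptic receptor, had the lowest signal of the called genes, 0.817 in replicate 1 and 0.627 in replicate 2, a mean of 0.722 ± 0.134. Its DHS (chr17:27520601-27520924) did not touch the start: its near edge lay 479 bp downstream and its midpoint in intron 1. The starts 7677 to 7997 bp downstream had peaks in replicate 2 alone, of which the highest was 0.473, with a lowest false discovery rate of 0.00087, and the 4 starts from 18079 bp on had none. In the stricter of the deposited peak lists Grm4 lost its peak in replicate 1 and the count of called genes became 4 of 7.

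Grm6, the ON bipolar cell receptor, had no peak at any of its 4 transcripts in either library. It was also without any segment under the false discovery rate limit, in the promoter windows and over its whole body of 15.5 kb. Promoters without such a segment in either library make up 30.2% of all coding genes, so the absence at Grm6 is a common state. Zfp879, Zfp454 and Zfp354c, zinc finger genes next to Grm6, had promoter signals of 4.12 and 3.25, 3.84 and 3.16, and 2.23 and 1.42, so DHSs were called on both sides of the gene.

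**Figure D2:**
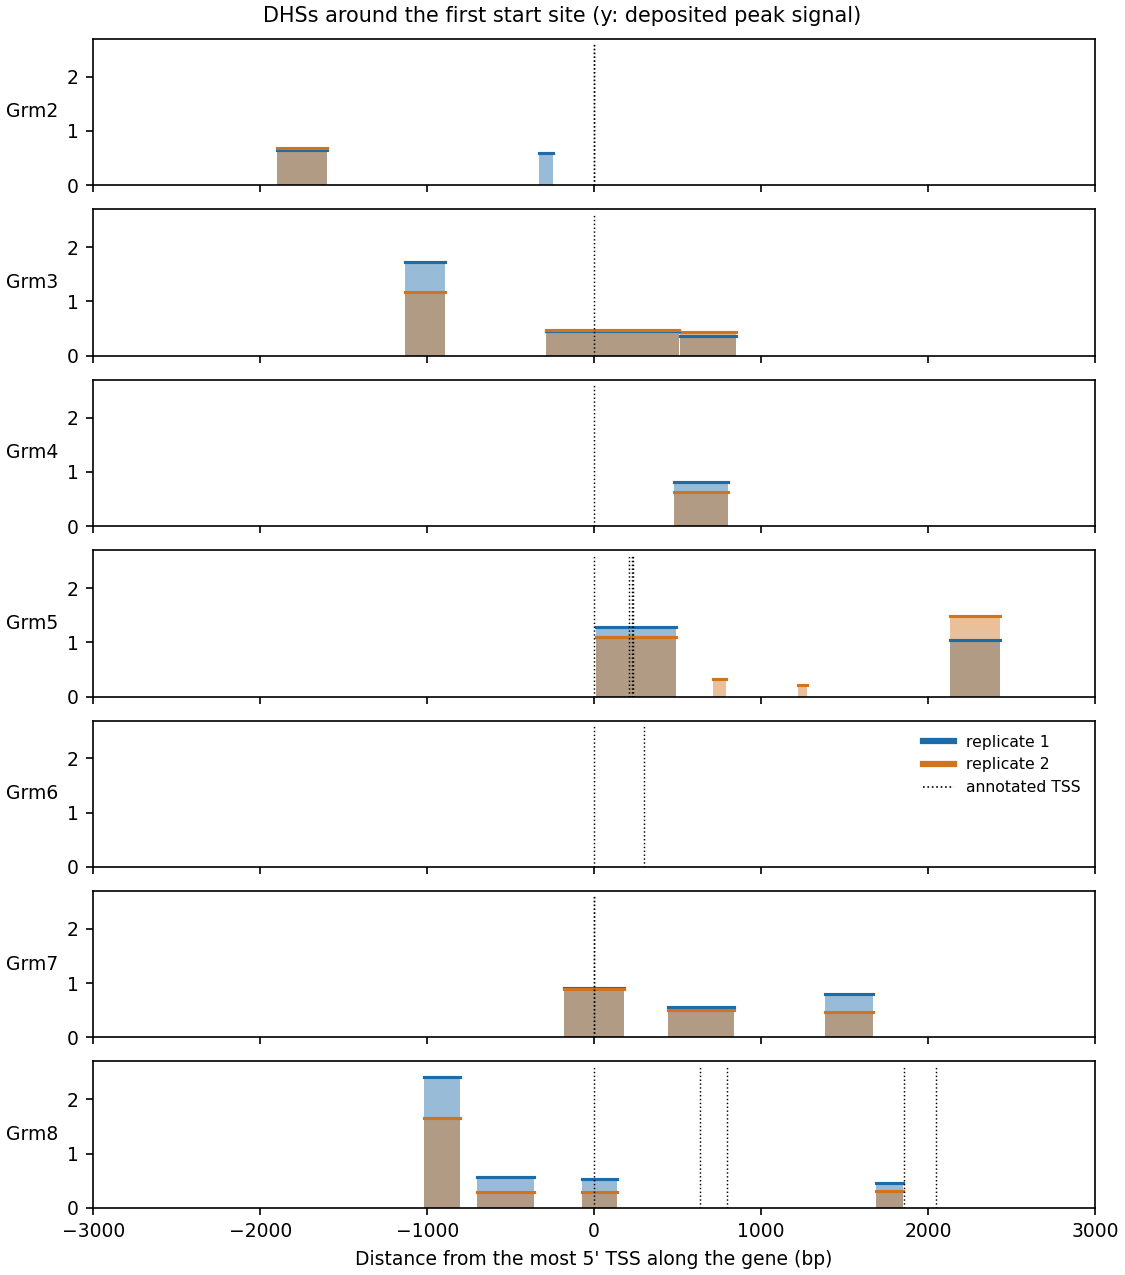
DHSs within 3 kb of the most 5′ TSS of each gene; the x axis is the distance along the gene in bp, the y axis the deposited peak signal, filled blocks are peaks of replicate 1 (blue) and replicate 2 (orange) and dotted lines are annotated TSSs. The highest blocks of Grm3 and Grm8 stand upstream of the start, those of Grm5 just after it and about 2 kb downstream, that of Grm7 on it and that of Grm4 downstream of it, and Grm6 has none.

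In order of mean promoter signal within 1 kb the called genes ran Grm8, Grm3, Grm5, Grm7 and Grm4, and each library alone gave this order. Taken across the 2 libraries, the values of Grm8 (1.66 to 2.41) and Grm3 (1.17 to 1.72) overlapped, as did those of Grm3 and Grm5 (1.09 to 1.29). Grm5 and Grm7 (0.891 to 0.917) did not overlap, nor did Grm7 and Grm4 (0.627 to 0.817). The same order held when each peak was ranked among all peaks of its library, from percentile 89.2 for Grm8 to 59.7 for Grm4 in replicate 1 and from 91.7 to 65.8 in replicate 2. On the deposited scale replicate 1 was higher at all 5 genes, and on the percentile scale replicate 2 was higher at all 5. The direction of the difference between the libraries therefore depends on the scale. The list of replicate 2 holds more peaks with a lower median signal, and a given signal ranks higher in it. On the percentile scale 88.7% of all promoter DHSs in the genome were higher in replicate 2. With 1 library per animal, a difference between the animals and one between the libraries cannot be told apart. With a window of 500 bp the order by mean became Grm5, Grm7, Grm4, Grm3 and Grm8. The place of Grm4 in this order rests on different sites. Its value of 0.817 in replicate 1 came from the DHS near the first start. Its 0.473 in replicate 2 came from a peak of that library alone, 7.13 kb downstream. The values of Grm8 also came from different DHSs, as given above.

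Beside other glutamate receptor families, the 5 of 7 metabotropic genes compare with 5 of 7 NMDA receptor genes, 4 of 4 AMPA receptor genes and 7 of 7 kainate and delta receptor genes. With an absent DHS counted as 0, the median promoter signal of the metabotropic genes was 0.904, against 1.57 for the NMDA genes, 1.57 for the AMPA genes, 0.939 for the kainate and delta genes and 1.02 for all coding genes. Grin1, the obligate NMDA receptor subunit, had 3.62 ± 0.4, above the Grm8 value in both libraries. These medians come from 4 to 7 genes each and were not tested.

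Promoter sequence was compared as a description. The observed over expected CpG content within 500 bp of the most 5′ TSS was 0.798 for Grm8, 0.524 for Grm7, 0.491 for Grm2, 0.457 for Grm5, 0.39 for Grm6, 0.377 for Grm3 and 0.35 for Grm4, against a median of 0.552 over all coding genes. Grm8 was the one member above that median. RefSeq promoters were found for 5 of the 7 genes, 8 promoters in all, and none for Grm4 or Grm5. The SP/KLF motif GGGCGG, searched on both strands as all motifs here, occurred in the RefSeq promoters of Grm2, Grm3, Grm7 and Grm8, and in 35.7% of 32851 RefSeq promoters of the same length. The EGR motif GCGGGGGCG occurred at Grm3 (2.91% of all promoters) and the AP-1 motif TGANTCA at Grm8 (7.81%). In the printed Grm7 promoter the SP/KLF match covers bases 102 to 107 and lies outside the footprints of both libraries. The printed Grm6 promoter held no exact match to any of the 13 motifs.

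Inside the gene bodies 49 shared DHSs were counted. From the group I gene onward they numbered 13 in Grm5, 1 in Grm2, 8 in Grm3, 2 in Grm4, 0 in Grm6, 13 in Grm7 and 12 in Grm8. Gene length differs widely in the family, from 13 kb for Grm2 to 922 kb for Grm7, so counts were also taken per 100 kb. They were 2.36 for Grm5, 7.7 for Grm2 from its single DHS, 3.34 for Grm3, 2.02 for Grm4, 1.41 for Grm7 and 1.4 for Grm8. The median was 4.49 over all coding genes and 2.38 over the 567 genes of 300 kb and more, whose median count was 12. Grm5, at 551 kb, thus lay next to the median of long genes, and Grm7 and Grm8, at 922 and 860 kb, below it. Grm3, at 240 kb, compares with a median of 3.71 for genes of 100 to 300 kb, and Grm4, at 99 kb, with 4.79 for genes of 20 to 100 kb. Absence of any shared body DHS, as in Grm6, applies to 31.4% of coding genes and to 48.6% of those under 20 kb.

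**Figure D3:**
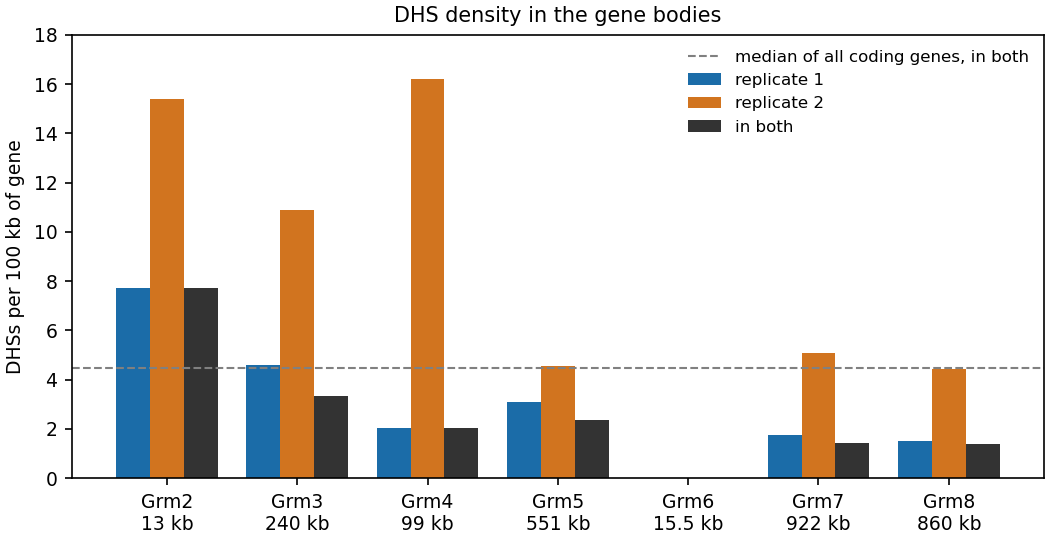
DHSs per 100 kb of gene body in replicate 1, in replicate 2 and in both; the dashed line is the median of all coding genes for DHSs in both, 4.49. Replicate 2 has the taller bar for every gene with a DHS, and Grm4 shows the widest gap between libraries, 2.02 against 16.2 in replicate 2.

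The libraries differed in the gene bodies. Grm5 had 17 peaks in replicate 1 and 25 in replicate 2, Grm2 had 1 and 2, Grm3 had 11 and 26, Grm7 had 16 and 47 and Grm8 had 13 and 38. Grm4 was singled out after its values were seen: it had 2 peaks in replicate 1 against 16 in replicate 2, and their ratio was 0.125. The peaks of Grm4 found in replicate 2 alone were 13 in number, with signals from 0.269 to 0.528, beside the median of 0.463 over all peaks of that library. In all, 102 body peaks of the 7 genes were in replicate 2 alone. Over the 2680 coding genes with at least 10 body peaks in replicate 2, the median ratio of replicate 1 to replicate 2 was 0.471. By the same ratio Grm5 had 0.68, Grm3 had 0.423, Grm8 had 0.342 and Grm7 had 0.34. The part of the larger number of peaks of replicate 2 in these counts was not tested.

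Counting the promoter windows, the gene bodies and the DNA within 50 kb of a start, and leaving out regions outside the gene that lay within 1 kb of the start of another gene, the 7 genes had 188 regions with a peak in either library, of which 61 were shared, 11 were in replicate 1 alone and 116 in replicate 2 alone. Over the genome, replicate 1 had 90059 peaks and replicate 2 had 175597, with 78165 shared DHSs. The matching shares over all regions were not computed, so nothing is read from these counts about the receptor genes. Of the 61 shared DHSs, 11 lay in promoter windows, 41 elsewhere in the gene bodies and 9 outside the genes. Introns held 38 of those 41, and intron 1 held 7 of them, 4 in Grm7, 2 in Grm5 and 1 in Grm3. Of the 49 body DHSs, 27 lay 5′ of the midpoint of their gene, with 10 of 13 in Grm7 and 6 of 13 in Grm5. The 49 include the promoter DHSs inside the genes, which all lie near the 5′ end and so count as 5′ by their place. The matching share over all coding genes was not computed, and no lean to the 5′ side is read from these counts. Median signals over the 61 DHSs were 0.524 (replicate 1) and 0.662 (replicate 2). Over all shared DHSs they were 0.755 and 0.811, with the same median width of 240 bp.

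**Figure D4:**
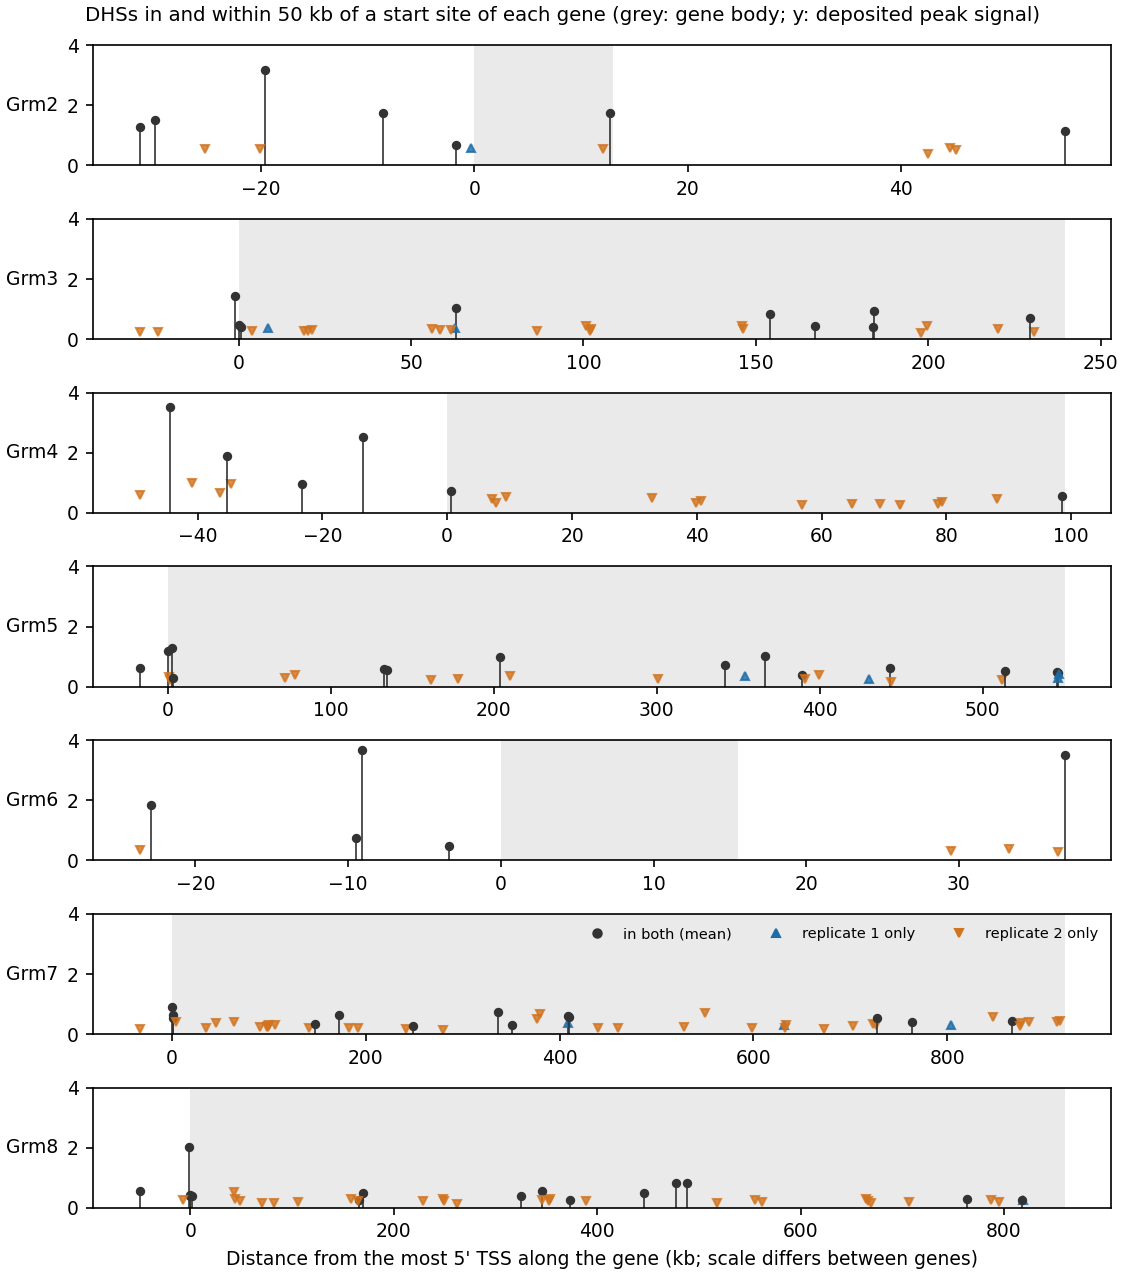
All DHSs in each gene body (grey) and within 50 kb of a start site, with the distance from the most 5′ TSS in kb on the x axis (its scale differs between genes) and the deposited peak signal on the y axis; dots on stems are DHSs in both libraries at their mean signal, triangles are peaks of 1 library, and peaks at start sites of neighbouring genes are included. The tallest stems stand upstream of Grm2 and Grm4 and around Grm6, outside the grey bodies, whereas the DHSs inside the long genes Grm3, Grm5, Grm7 and Grm8 are spread along the body and stay below 1.5.

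Within Grm5 the highest DHS beside the promoter was the printed one in intron 1, 2.28 kb from the most 5′ start, with 1.05 in replicate 1 and 1.49 in replicate 2. It was followed by a DHS in intron 4, 366 kb from the start, with 0.817 and 1.2. Another, in intron 3 at 204 kb (chr7:87787681-87787900), had 0.563 and 1.43, and its ratio of 2.54 between replicate 2 and replicate 1 was the largest of the 61. All 3 were higher in replicate 2 on the deposited scale.

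Away from the starts of other genes, the highest DHSs at Grm2 lay outside the gene or at its end. One with 3.55 and 2.79 lay 19.6 kb upstream within Tex264, a neighbouring coding gene, so it is near Grm2 by distance only. A DHS in the non-coding part of the last exon (chr9:106643241-106643420) had 1.74 and 1.78 and is the single shared DHS of the Grm2 body. Another, 31.3 kb upstream and 1394 bp from a start of Tex264, had 1.46 and 1.12. Grm2 also had the most distal DHSs of the family.

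Grm3 had its highest DHSs beside the promoter in intron 1 at 63.1 kb with 1.01 and 1.09, in intron 3 at 184 kb with 1.04 and 0.811 and in intron 2 at 154 kb with 0.64 and 1.06. All 3 lay inside the gene, and no shared distal DHS was found within 50 kb of its start.

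The Grm4 DHS printed above, 13.5 kb upstream and 4714 bp from the pseudogene Gm9703, had 3.51 in replicate 1 and 1.54 in replicate 2, a mean of 2.52 ± 1.39. Its ratio of 0.44 was the lowest of the named sites. The next was 23.3 kb upstream with 0.917 and 0.991, and the third lay 98.6 kb downstream, at the far end of the gene, with 0.663 and 0.458. Both higher DHSs of Grm4 thus lie outside the gene, on the side of Hmga1, a chromatin protein gene with a promoter signal of 1.93 and 1.82.

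The long group III genes had lower mean signals outside the promoter windows than at their highest promoter DHS. In Grm7 the highest beside the promoter were in intron 2 at 337 kb with 0.593 and 0.866, in intron 1 at 173 kb with 0.485 and 0.787 and in intron 1 at 1.53 kb with 0.794 and 0.463. In Grm8 they were in intron 6 at 488 kb with 0.478 and 1.17, a ratio of 2.46, in intron 6 at 477 kb with 0.879 and 0.762, and 49.8 kb upstream with 0.408 and 0.742. The means of these 6 ran from 0.575 to 0.826. The median of the same mean over all 52122 shared DHSs away from promoters, 0.708, lay within that range. These 6 were picked as the highest of their genes, so they are not matched to a median over all sites. Over all 50 shared DHSs of the receptor genes outside their promoter windows the median was 0.569. The single shared DHS assigned to Grm6, 3.42 kb upstream of the gene, had 0.439 and 0.543.

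Shared distal DHSs, over 1 kb from the start of any gene and within 50 kb of a start of the receptor gene, numbered 14. Grm5 had 3, Grm2 had 5, Grm3 had 0, Grm4 had 2, Grm6 had 1, Grm7 had 2 and Grm8 had 1. The median was 2 for the 7 genes, against 2 for the NMDA genes, 2 for the AMPA genes, 6 for the kainate and delta genes and 3 for all coding genes. A gene with many start sites has a longer stretch in which DHSs are counted, and the 7 genes have between 1 and 8 annotated starts.

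Which library had the higher DHSs depended on the scale. On the deposited signal, 2 of 11 promoter DHSs of the receptor genes were higher in replicate 2, or 18.2%, against 33.7% of 26043 promoter DHSs in the genome. Elsewhere 27 of 50 were higher in replicate 2, or 54%, against 51.9% of 52122. When each peak was ranked among the peaks of its own library, 9 of the 11 promoter DHSs (81.8%) and 44 of the 50 others (88%) were higher in replicate 2, against 88.7% and 89.6% of all. More than 2-fold differences between the libraries were found at 5 of the 61, or 8.2%, against 5% of all shared DHSs. These shares rest on few sites, and those of 1 gene share a locus.

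Footprints were called in most of the DHSs. The 61 shared DHSs held 114 footprints in replicate 1 and 177 in replicate 2, a mean of 1.87 and 2.9 per DHS, against 2.35 and 3.26 over all shared DHSs. At least 1 footprint lay in 80.3% of them in replicate 1 and 96.7% in replicate 2, against 84.1% and 93.6%. Overlap by at least 1 bp with a footprint of the other library was found for 54.4% (replicate 1) and 35% (replicate 2), against 65.9% and 45.2% over all shared DHSs. Of the 114 footprints of replicate 1, 15 of 25 at Grm5, 10 of 12 at Grm2, 13 of 26 at Grm3, 7 of 12 at Grm4, 9 of 18 at Grm7 and 8 of 21 at Grm8 were found in both. The Grm6 DHS had none in replicate 1 and 2 in replicate 2. By share, recurrence of the footprints of replicate 1 was highest for Grm2, on 12 footprints. Of the 5 DHSs counted for Grm2, 4 lie outside the gene. Of the footprints of replicate 2, 15 of 52 at Grm5, 9 of 10 at Grm2, 13 of 26 at Grm3, 6 of 10 at Grm4, 9 of 37 at Grm7 and 10 of 40 at Grm8 were found in both.

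Recognition sequences in a window of 300 bp at each of the 61 DHSs occurred at rates close to or below those of all shared DHSs. The E-boxes CAGATG and CAGCTG were present in 26.2% and 23%, against 26.2% and 23.5% of all. SP/KLF was present in 14.8%, against 23.2%, AP-1 in 3.28%, against 11%, the TATA box TATAAA in 14.8%, against 11.8%, and the MEF2 motif TATTTATA in 1.64%, against 1.81%. The CTCF consensus was present in 3 DHSs or 4.92%, against 4.16%. CRE (TGACGTCA), EGR, NRF1, REST, RFX and NFI were in none of these windows, and the 1 EGR match in a DHS, at the start of Grm3, lay outside the window. Their shares over all shared DHSs were 1.15%, 1.6%, 0.516%, 0.023%, 0.72% and 0.141% in the same order. Median GC content was 48% against 51.8%.

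A match wholly inside a footprint of both libraries was found at 3 DHSs. The CTCF consensus, that of the insulator protein, lay in such footprints at 2 sites near Grm2, chr9:106600641-106600840 downstream of the gene with 1.47 and 0.831 and chr9:106687321-106687540 upstream with 1.46 and 1.12. The third was the E-box CAGATG, of the type bound by neuronal bHLH factors, in intron 6 of Grm8 (chr6:27657621-27657820). In the printed Grm5 DHS the TATA match at bases 146 to 151 lies inside the MEF2 match at bases 146 to 153, so the same letters count for both, and neither lies inside footprints of both libraries. The printed upstream DHSs of Grm3 and Grm8 and the printed Grm4 DHS held no exact match to any of the 13 motifs. Only the fixed letters of each motif were searched, with N for any base. Variants that differ from these letters were not counted, so such sites may be present in these DHSs. Protein binding was not measured.

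Genes that work with the receptors had a called promoter in 33 of 38 cases, beside the 62.7% of coding genes given above. For group I coupling, the Homer scaffolds and the Gq cascade, 9 of 10 were called. The highest were Gna11, a Gq-family alpha subunit, with 6.65 and 7.08, and Homer1, with 5.53 and 4.17, and Homer2 had a peak of 0.509 in replicate 1 alone. For group II and III coupling, the Gi/o proteins and their effectors, 11 of 11 were called, led by Rgs4, a regulator of G protein signalling, with 2.52 and 2.12 and Gnai2, a Gi alpha subunit, with 2.49 and 2.12. Receptor binding proteins and glutamate transporters were called in 11 of 11 cases, led by Cyth2 with 6.83 and 8.72 and Pick1, a PDZ protein that binds Grm7, with 7.02 and 7.12.

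The genes of the retinal ON bipolar cascade, in which Grm6 acts, were called in 2 of 6 cases, beside 62.7% of all coding genes. Rgs11, which speeds the end of the G protein signal, had 1.07 and 1.35, and Trpm1, the channel that Grm6 closes, had 0.401 and 0.543. Gpr179 and Lrit3 had no promoter peak in either library, and Gnb3 had a peak of 0.528 in replicate 2 alone. Grm6 and most genes of its cascade were thus not called in both libraries, and the lists for the other groups were called in all but 1 gene. Gene length was not matched between the lists. Gnb3, Rgs11 and Lrit3 are 6.04, 8.37 and 16.1 kb long, and 49.4% of coding genes under 20 kb were called. The difference between the lists was not tested.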

How the data were processed

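DNase-seq libraries of left cerebral cortex from 2 mice were used as deposited. Per the labels' assembly field and the files' own notes, peaks and footprints were called for each library separately on mm10 and not pooled by the authors. Aligner and callers: not given in the sources used here. Peak signal is the authors' deposited value with no stated unit; values under 50 steps were whole multiples of 0.00771 (replicate 1) and 0.00498 (replicate 2) to within 0.000431 and 0.000319 of a step. The authors deposited 2 peak lists per library (the larger was used; the stricter has 52034 and 105095 peaks) and footprints, whose constant score column was not used. The authors also deposited the FDR of the local cleavage rate over genome segments of each library, listing segments at or under 0.05.

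Transcripts came from GENCODE M21; all peaks lay within the 21 chromosomes of GRCm38.p6. Coordinates are 1-based. Peaks overlapping by at least 1 bp formed a shared DHS, with the highest signal per library. Distances run from the midpoint of a DHS to the most 5′ TSS of the gene, unless an edge or a nearest start is named. Sites named are all promoter DHSs, the 3 other shared DHSs of highest mean per gene, apart from regions outside the gene within 1 kb of the start of another gene, and the one with the largest ratio. Pathway genes named are the 2 highest per list and the first 2 in the alphabet with no peak. Other genes and sites are named for their place next to a member, for a motif, or as chosen after their values were seen. The members, lists and rules were chosen with earlier results of these data known. With 1 group of 2 libraries, likeness of patterns between genes was not computed. Promoter sequences are from RefSeq (GRCm38.p6) and the others from the reference genome, from which the hybrid animals may differ. A further marker list is not reported here. Overlap, window and motif functions were tested on simulated data. Alternatives covered the peak list, window, start sites, overlap, distal range, equal numbers of peaks and each library alone. Tools were bedtools 2.31.1, pysam 0.24.0, Matplotlib 3.10.9, SciPy 1.17.1, pandas 2.3.3, NumPy 2.4.6 and Python 3.11.15.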

Additional observations from a re-analysis of the deposited data

How the results depend on the processing

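No paired analysis was possible because both libraries belong to 1 group. The count of 5 called promoters ranged from 4 with the stricter peak list to 6 with a 2 kb window or replicate 1 alone, and the pathway count of 33 from 29 to 34. The median promoter signal of 0.904 became 0.462 with a 500 bp window, a window chosen after seeing the data for this measure. The 49 gene-body DHSs became 24 with the stricter list and 59 to 153 with either library left out. The 14 distal DHSs became 26 within 100 kb, 7 with the stricter list and 16 to 54 with either library left out. The 62 recurrent footprints of replicate 1 became 35 when 50% of both had to overlap, and 114 to 177 with either library left out, where every footprint of the other counts because recurrence needs both. The body and distal counts of 1 library are higher by construction for the same reason. Peak signal has no stated unit and depth is unknown, so a missing peak is one that was not called at this depth.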

Other observations

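Of the metabotropic, NMDA, AMPA, kainate and delta receptor genes counted together, the 4 without a promoter DHS in both libraries were also the 4 shortest: Grin3b (6.48 kb), Grm2 (13 kb), Grm6 (15.5 kb) and Grin2c (18.1 kb). The next shortest, Grin1 (28 kb), had 3.62 ± 0.4. Over all coding genes a promoter DHS was called for 49.4% of those under 20 kb, against 92.1% of those of 300 kb and more. The pattern was seen after the values and was not tested. The last exon of Grm2, where its single body DHS lies, is crossed by the antisense gene Gm28111, so that DHS cannot be assigned to one of them.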
